A study of Mus musculus with 4 samples.

Results

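The genes described here are the nuclear genes of oxidative phosphorylation, listed by a rule on symbols that was set with earlier results of these data known. They are the symbols that begin Nduf followed by a, b, c, s or v and a digit, the Sdha to Sdhd genes, and those that begin Uqcr, Cox with a subunit number of the 4 to 8 series and a letter a to c, or Atp5. No pseudogene suffix was met, and 82 of the 23238 gene symbols in the count tables matched. By complex these were 37 genes of complex I, 4 of complex II, 8 of complex III, 16 of complex IV and 17 of complex V. A symbol rule is only an approximation of the protein complexes. Atp5s and Atp5sl match it but are not counted among the subunits of the ATP synthase, Ndufa4 is now placed with cytochrome c oxidase, and Cox4i1, Ndufab1, Cyc1 and Cycs belong to the respiratory chain but fall outside the patterns. Of the 82 genes, 78 passed the filter on low counts and were tested. The 4 that did not, Cox6a2, Cox7b2, Cox8b and Cox8c, are isoforms known from muscle or testis.

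Oxidative phosphorylation takes place on the inner mitochondrial membrane. Complexes I and II pass electrons from NADH and succinate to ubiquinone, complex III passes them on to cytochrome c, and complex IV hands them to oxygen. Complexes I, III and IV pump protons, and complex V, the ATP synthase, lets them flow back to make ATP. Most subunits are encoded in the nucleus, translated in the cytosol and imported, while a small catalytic set is encoded by mitochondrial DNA. Endothelial cells are known to draw much of their ATP from glycolysis, and mitochondrial electron transport is a known source of oxidants in endothelium held in high glucose.

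Messenger RNA was sequenced in 4 libraries of Mus musculus cells labelled as cavernous endothelial cells, the lining cells of the erectile tissue, cultured from corpus cavernosum. Every culture was kept in M199 medium supplemented with 0.5 mg/ml heparin, 20% serum (fetal bovine) and 1% antibiotic (penicillin/streptomycin), and glucose was applied for 72 hours. The groups were normal glucose (replicates 1 and 2) and high glucose (replicates 2 and 4). Glucose concentrations, an osmotic control, mouse strain and age are not stated in the labels. Nor do the labels say that replicates came from separate cultures or animals, so the p-values weigh a group difference against library-to-library spread that may be technical alone.

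Total counts were 46571770 in normal glucose replicate 2 and 64080301 to 74971589 in the other 3 libraries. Defining endothelial markers were scarce: the 10 listed genes summed to between 11.9 and 15.3 CPM (counts per 1e6 reads, scaled by the TMM method of edgeR), and Cldn5 had no count in 3 libraries. The 10 fibroblast markers summed to between 9640 and 11558 CPM and the 8 smooth muscle and pericyte markers to between 475 and 663 CPM. The cells are therefore called by their label here. Both sums, like the endothelial and the Schwann cell and neuron sums, were highest in normal glucose replicate 2. The fibroblast sum was close to that of high glucose replicate 2 (11513 CPM). By gene, normal glucose replicate 2 was highest in 4 of 10 fibroblast and 4 of 8 smooth muscle and pericyte markers. The same held for 5 of 8 tested endothelial markers. Macrophage and leukocyte markers summed to between 66.5 and 75.9 CPM, Schwann cell and neuron markers to between 16.7 and 24.9, adipocyte markers to between 6.35 and 17.8, skeletal muscle markers to between 2.56 and 2.98, red blood cell markers to between 0.39 and 2.09, and epithelial markers to between 0.634 and 1.04. Of these, the adipocyte and red blood cell sums were lowest in normal glucose replicate 2 (6.35 and 0.39 CPM). Within the adipocyte list, Fabp4 was lowest there (5.32 CPM) but Plin1 was highest (0.734 CPM). The part of cell makeup in the results below was not tested. In such bulk RNA fewer cells of a type and less RNA per cell cannot be told apart. No symbol of a mitochondrially encoded gene is in the tables, so the 13 subunits encoded there were not analysed here.

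None of the 78 tested genes passed an adjusted p of 0.05 in edgeR's quasi-likelihood test of high against normal glucose. Over all 16270 genes tested, 0.0123% did (2 genes), so the test made almost no calls anywhere. The lowest p-value of a member was 0.0234 for Cox6b2, with an adjusted p of 0.806 by edgeR. At an unadjusted p under 0.05, 1 member was higher (Cox6b2) and 1 lower (Ndufa4l2), where 2.22% of all genes were higher and 3.23% lower. DESeq2, limma-voom and edgeR's exact test called 0 members as well, while calling 0.455%, 0.0123% and 0.688% of all genes. Leaving out the low-count filter also called 0 members and 0.626% of all genes, and a floor of 5 CPM 0 members and 0.0192%. Other scalings called 0 members and 0.0123% to 0.0184% of all genes, and an adjusted p of 0.10 in edgeR's test 0 members and 0.0184%.

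The fitted log2 fold changes of the members lay mostly on the positive side. High glucose was above normal in 65 of 78 members (83.3%) and below in 13, against 49.2% above 0 among all genes. The median member was at 0.18 on the log2 scale, within a range of -0.60 to 0.80, and the median of all genes was 0.00. The medians were 0.21 for complex I, 0.18 for complex II, 0.26 for complex III, 0.26 for complex IV and 0.11 for complex V. In 18 members both high glucose libraries were above both normal glucose libraries (23.1%, against 16.3% of all genes). The reverse order held for 2 members, Ndufa4l2 and Ndufv3 (2.56%, against 16.2%).

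The shift went with 1 library. Normal glucose replicate 2 was the lowest of the 4 libraries in 56 of 78 members (71.8%), against 35.4% of all genes. Relative to each gene's mean log2 CPM over the 4 libraries, the median member stood at 0.11 in normal glucose replicate 1, -0.31 in normal glucose replicate 2, 0.14 in high glucose replicate 2 and 0.07 in high glucose replicate 4. By these medians, replicate 1 of normal glucose lay beside the high glucose libraries. Its value fell between them in 30 of 78 members, against 4985 of all 16270 genes. The median difference between the normal glucose libraries was -0.43 (replicate 2 minus replicate 1), and that between the high glucose libraries was -0.04 (replicate 4 minus replicate 2). Against normal glucose replicate 1 the median differences of the high glucose libraries were 0.05 and -0.04.

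Fits without 1 normal glucose library differed in how far the members lay above 0. Among all 16270 genes, 8300 were above 0 without normal glucose replicate 2 and 8133 without replicate 1. Without normal glucose replicate 2, 46 of 78 members were above 0, the median was 0.02 on the log2 scale and 0 members passed the threshold, against 0.965% of all genes in either direction. Without high glucose replicate 2 or 4 it was also 0 members, against 0.197% and 0.221% of all genes. Without normal glucose replicate 1, which leaves replicate 2 as the only control, the median was 0.41. In that fit 31 members passed as higher (7.65% of all genes did) and 3 as lower (8.74% of all genes). The 3 were Ndufa4l2, Atp5d and Atp5g2. A lone library is assumed there to vary like the other group.

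**Figure D1:**
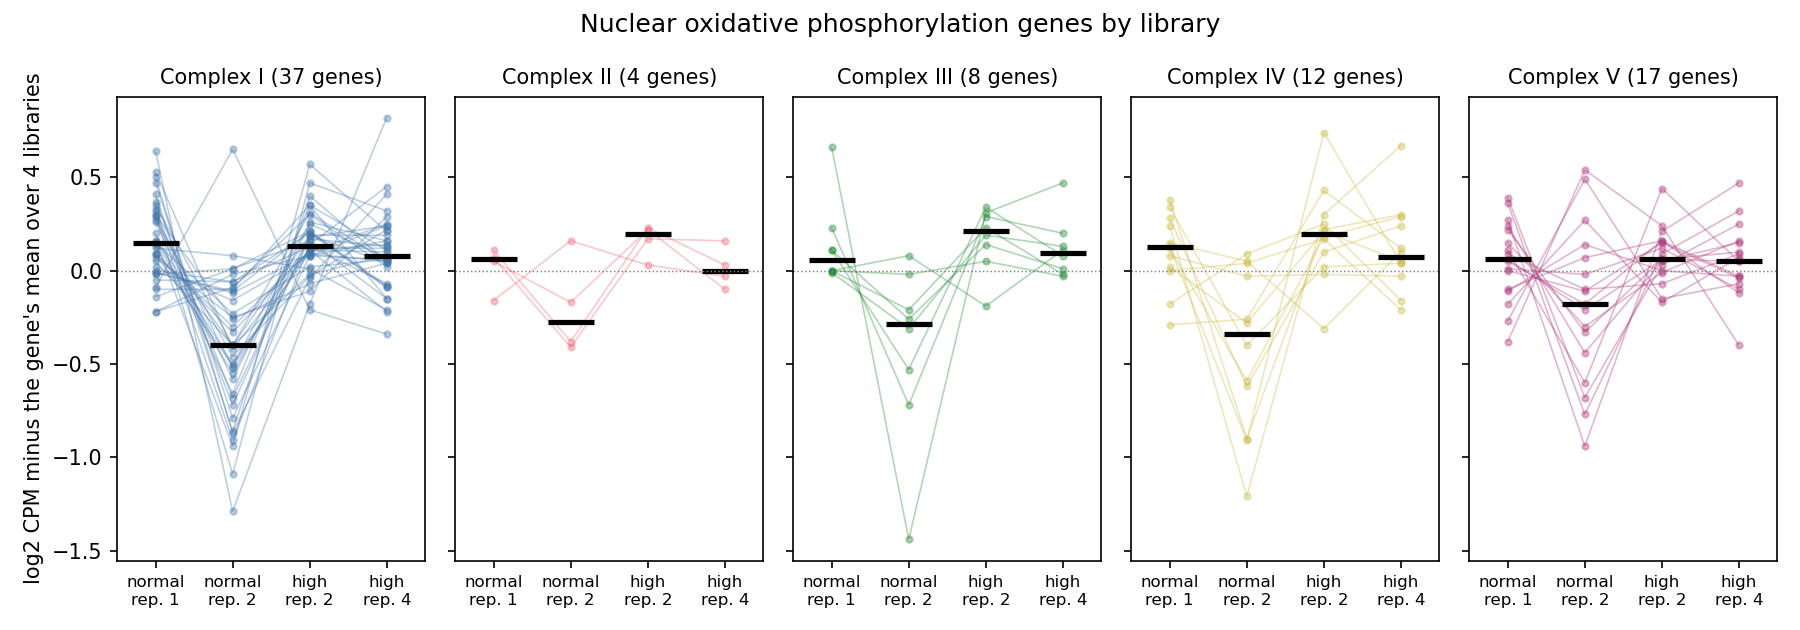
Log2 CPM of each of the 78 tested genes minus that gene's mean over the 4 libraries (vertical axis, log2 units), by library (horizontal axis) and complex (panels); each coloured line joins the 4 libraries of 1 gene as a guide, and black bars are medians. In every panel the median is lowest in normal glucose replicate 2, and the median of normal glucose replicate 1 lies near those of the high glucose libraries.

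**Figure D2:**
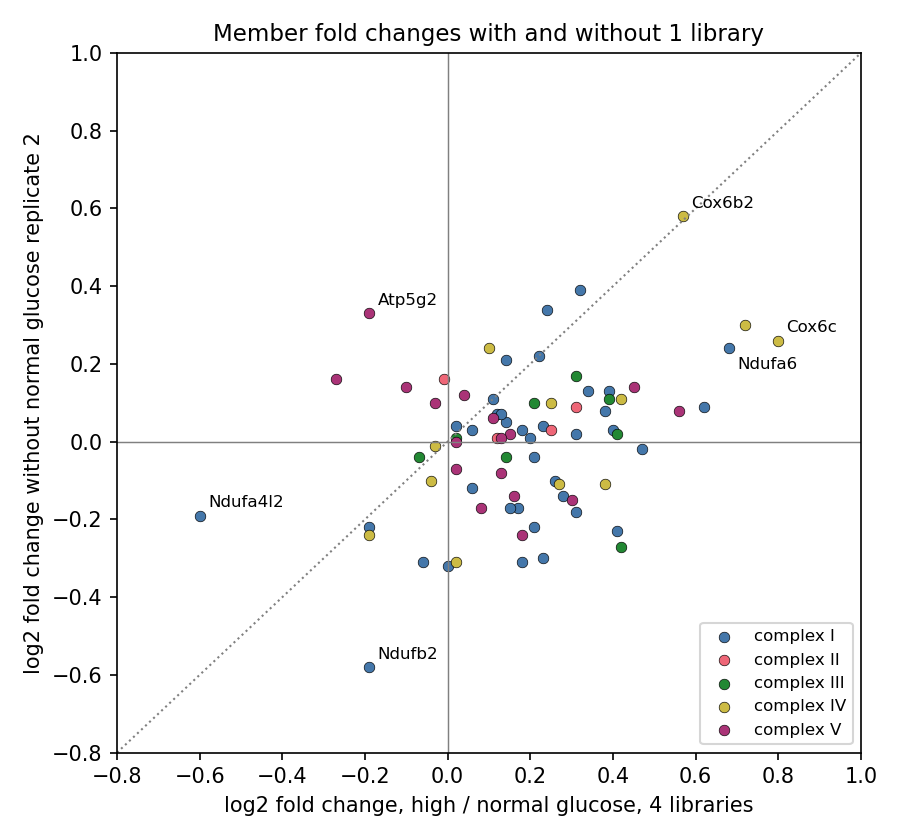
Log2 fold change, high against normal glucose, of the 78 tested genes with all 4 libraries (horizontal axis) and without normal glucose replicate 2 (vertical axis), coloured by complex; the dotted line marks equal values. The points spread to the right of 0 on the horizontal axis (65 genes above 0), but to both sides of 0 on the vertical axis (46 above 0).

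Promoters of these genes are classical targets of NRF1 (nuclear respiratory factor 1), GABPA (nuclear respiratory factor 2), the estrogen-related receptor alpha and YY1. Windows of 300 bases, 250 before to 50 after the start of transcription, were taken from RefSeq (GRCm38.p6) and matched 69 of the 82 genes. In some genes the RefSeq start lay far from the GENCODE start, by 3643 bases in Atp5d, 2997 in Cox7a2l and 1305 in Atp5g2. Such windows are still counted in the motif shares below. The 3 promoters below are shown because they hold the NRF1 motif and belong to genes whose count was lowest in normal glucose replicate 2: Sdha, Ndufs5 and Atp5h, picked after their values were seen. Only bases upstream of both the RefSeq and the GENCODE start are printed, 5′ to 3′ on the gene's strand. Capitals mark the NRF1 motif GCGCNTGCG on either strand (N is any base) and, in Ndufs5, also the estrogen-related receptor motif AAGGTCA on the other strand.
Sdha promoter, chr13:74350281-74350490, minus strand: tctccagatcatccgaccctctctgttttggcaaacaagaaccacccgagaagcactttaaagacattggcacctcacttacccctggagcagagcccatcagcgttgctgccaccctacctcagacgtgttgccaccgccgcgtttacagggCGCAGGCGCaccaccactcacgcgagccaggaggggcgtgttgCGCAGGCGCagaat
Ndufs5 promoter, chr4:123718203-123718436, minus strand: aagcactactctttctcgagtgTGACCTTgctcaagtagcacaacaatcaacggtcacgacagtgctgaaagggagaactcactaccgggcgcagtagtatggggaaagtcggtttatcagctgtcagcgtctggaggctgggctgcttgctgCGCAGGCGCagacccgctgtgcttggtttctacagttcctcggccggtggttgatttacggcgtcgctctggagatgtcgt
Atp5h promoter, chr11:115419963-115420169, minus strand: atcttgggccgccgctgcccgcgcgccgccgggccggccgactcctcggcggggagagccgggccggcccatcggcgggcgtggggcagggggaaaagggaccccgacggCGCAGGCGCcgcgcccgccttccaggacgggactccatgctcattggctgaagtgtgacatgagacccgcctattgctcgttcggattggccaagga
The Sdha stretch holds 2 NRF1 matches, near its 3′ end. That of Ndufs5 holds 1 NRF1 match and, near its 5′ end, 1 match to the receptor motif, and that of Atp5h holds 1 NRF1 match.

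The motif content of the members differed from that of promoters at large. The NRF1 motif was in 22 of 69 member windows (31.9%), against 6.31% of all 32851 windows. The GABPA motif CCGGAAG was in 15 (21.7%, against 8.86%), the receptor motif AAGGTCA in 8 (11.6%, against 4.72%) and the YY1 motif AAGATGGCG in 7 (10.1%, against 1.4%). Both strands were searched, matches may overlap, and a match is a description of letters, not a bound site. For 3 of the 4 motifs, members with and without it stood close together in normal glucose replicate 2. The median log2 deviation was -0.29 with the NRF1 motif and -0.33 without, -0.26 and -0.33 for the GABPA motif, and -0.30 and -0.31 for the receptor motif. For YY1 it was -0.55 in the 7 members with the motif and -0.30 in the rest.

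In complex I, which oxidises NADH, 33 of 37 members were above 0 and 0 passed the test. The 7 core subunits in the list carry the flavin, the iron-sulphur clusters and the ubiquinone site. Ndufv1, which binds NADH and flavin, had 32.3 and 20.6 CPM in normal glucose replicates 1 and 2, and 31.1 and 34.5 CPM in high glucose replicates 2 and 4 (log2 fold change 0.31, SE 0.24, and 0.02 without normal glucose replicate 2). Ndufs1, the largest iron-sulphur subunit, had 47 and 28.4 CPM in normal and 38.2 and 45.3 CPM in high glucose. The groups overlapped in both, and normal glucose replicate 2 was the lowest library in each. The median deviation of the core subunits in that library was -0.25 on the log2 scale, and 5 of 7 were lowest there.

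The 29 genes listed as accessory subunits of complex I, which surround and stabilise the core, showed a wider gap between libraries. They include Ndufa4 by its symbol. Normal glucose replicate 2 was lowest in 23 of 29, with a median log2 deviation of -0.42. Ndufa6 (chromosome 15, 82350140 to 82354322, minus strand), a subunit of the LYR motif family, had 16.8 and 7.84 CPM in normal and 22.5 and 17.4 CPM in high glucose. Its groups did not overlap (log2 fold change 0.68, SE 0.34, adjusted p = 0.948 by edgeR), but the value was 0.24 without normal glucose replicate 2. Ndufs5, an intermembrane space subunit, had 15.3 and 5.8 CPM in normal and 17.1 and 15.4 CPM in high glucose, again without overlap. There the control that stood apart was replicate 2, since replicate 1 came within 0.1 CPM of high glucose replicate 4. A pseudogene holds 35.7% of the 32-base stretches of Ndufs5, so its counts are uncertain.

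Ndufa5, the accessory subunit of lowest mean CPM, had 1.58 and 0.39 CPM in normal and 0.879 and 1.79 CPM in high glucose. Its replicates were far apart within both groups, and its fold change was 0.41 with an SE of 0.61. Ndufv3, another accessory subunit, went the other way, at 61.4 and 59.5 CPM in normal and 56.8 and 49 CPM in high glucose. Its groups did not overlap, and the fold change of -0.19 (SE 0.18, adjusted p = 0.991 by edgeR) was about the same without normal glucose replicate 2, at -0.22. Ndufa3 and Ndufa7 were likewise little moved by that library. Ndufa7 had 45.2 and 49.6 CPM in normal and 64.9 and 53.6 CPM in high glucose, with log2 fold changes of 0.32 and, without the library, 0.39. Ndufa3 had 13.1 and 15.1 CPM in normal and 16.2 and 17 CPM in high glucose, with 0.24 and 0.34. Both were picked after their values were seen.

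Ndufa4l2 was the member with the lowest fold change. It encodes a paralogue of Ndufa4 known to be induced by low oxygen through HIF-1 and to restrain complex I. The gene lies on the plus strand of chromosome 10, 127514967 to 127517154, and its 3′ end overlaps that of Shmt2 on the other strand. The overlap is small: 0.111% of the 32-base stretches of Ndufa4l2 occur in Shmt2 transcripts. It stood at 360 and 600 CPM in normal and 331 and 303 CPM in high glucose. The groups did not overlap, and normal glucose replicate 2 was 1.81 times the mean of the other 3 libraries (log2 fold change -0.60, SE 0.25, adjusted p = 0.907 by edgeR). Without that library the fold change was -0.19. Ndufa4 itself (chromosome 6, 11900292 to 11907497, minus strand) had 65.7 and 43.5 CPM in normal and 74.3 and 69.2 CPM in high glucose, with a log2 fold change of 0.39 (SE 0.23), or 0.13 without normal glucose replicate 2.

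Per kilobase of coding sequence, the paralogue was the more abundant of the pair in every library. Ndufa4l2 had 1379 and 2300 CPM per kilobase in normal and 1267 and 1161 in high glucose, where Ndufa4 had 267 and 177, then 302 and 281. Ndufa4l2 therefore made up 83.8% and 92.9% of the pair in normal glucose and 80.8% and 80.5% in high glucose. Per kilobase of messenger RNA the shares were 78.2% and 90%, then 74.4% and 74.1%. On both scales the normal glucose shares were above the high glucose shares, most of all in replicate 2.

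Complex II, succinate dehydrogenase, links the citric acid cycle to the chain and has 4 subunits, all nuclear. None passed the test. Sdha, the flavoprotein that oxidises succinate, had 49.3 and 35.3 CPM in normal and 52.8 and 52.2 CPM in high glucose, without overlap (log2 fold change 0.31, SE 0.21, adjusted p = 0.991 by edgeR). The iron-sulphur subunit Sdhb had 23.2 and 16.5 CPM in normal and 25.3 and 22 CPM in high glucose. In both the low value was that of normal glucose replicate 2, and without it the fold changes were 0.09 and 0.03. Of the membrane anchors, Sdhc differed in that library. It had 111 and 139 CPM in normal and 126 and 122 CPM in high glucose, so replicate 2 of normal glucose was its highest. Sdhd, lowest there like the catalytic pair, had 47 and 40.4 CPM in normal and 52.7 and 42.2 CPM in high glucose, where replicates within each group differed by more than the group means. The summed counts of the catalytic pair were 72.5, 51.9, 78.1 and 74.2 CPM (normal replicates 1 and 2, high replicates 2 and 4), and those of the anchors 158, 179, 179 and 164 CPM.

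Complex III, the cytochrome bc1 complex, was split as well. There the small subunits stood lower in normal glucose replicate 2, relative to each gene's mean, than the core proteins. The nearest log2 deviations, -0.26 for the small subunit Uqcr11 and -0.21 for the core protein Uqcrc2, were close. Of its 3 listed core proteins, 1 was lowest in normal glucose replicate 2. That was Uqcrc2, with 71.9 and 61.9 CPM in normal and 83.8 and 70.7 CPM in high glucose (log2 fold change 0.21, SE 0.19, and 0.10 without that library). The Rieske iron-sulphur protein Uqcrfs1, which passes electrons to cytochrome c1, had 51.5 and 51 CPM in normal and 53.5 and 50.6 CPM in high glucose (log2 fold change 0.02, SE 0.17). Uqcrc1 had 99.9 and 105 CPM in normal and 87.4 and 107 CPM in high glucose (log2 fold change -0.07, SE 0.19). The 5 small subunits were all lowest in normal glucose replicate 2, with a median log2 deviation of -0.53 there, against -0.02 for the 3 core proteins.

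Uqcrb, a small subunit at the ubiquinone-binding side, had the lowest ratio of any tested member in normal glucose replicate 2, at 0.26 of the mean of the other libraries. Its values were 8.63 and 2 CPM in normal and 6.78 and 7.58 CPM in high glucose. Replicate 1 of normal glucose was its highest library, so the fold change of 0.42 (SE 0.53) turned to -0.27 without replicate 2. Other genes, mostly pseudogenes, hold 57.3% of the 32-base stretches of Uqcrb, so this value is uncertain. Uqcrq had 34.5 and 22.2 CPM in normal and 40.6 and 33.9 CPM in high glucose, with overlapping groups (log2 fold change 0.39, SE 0.25, and 0.11 without normal glucose replicate 2). Uqcr10 had 19.9 and 16.2 CPM in normal and 22.8 and 22 CPM in high glucose and was the only complex III gene whose groups did not overlap (log2 fold change 0.31, SE 0.20, adjusted p = 0.991 by edgeR). Without normal glucose replicate 2 its fold change was 0.17.

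Complex IV, cytochrome c oxidase, held both the largest positive fold change and the smallest p-value among the members. Cox6c (chromosome 15, 35925886 to 35938246, minus strand), a small structural subunit, had 7.41 and 2.68 CPM in normal and 7.72 and 9.99 CPM in high glucose. The groups did not overlap (log2 fold change 0.80, SE 0.42, adjusted p = 0.963 by edgeR), but normal glucose replicate 1 was close to high glucose replicate 2, and the value without normal glucose replicate 2 was 0.26. Other genes hold 18.5% of the 32-base stretches of Cox6c, which also overlaps Vps13b on the other strand. Cox7b, another small subunit, had 14.9 and 9.08 CPM in normal and 15.5 and 16.7 CPM in high glucose (0.42, SE 0.26, and 0.11 without that library). Cox5a (-0.19), Cox6a1 (-0.04) and Cox8a (-0.03) had log2 fold changes below 0. Cox5a, which contacts the matrix side of the enzyme, had 210 and 195 CPM in normal and 153 and 203 CPM in high glucose, so only high glucose replicate 2 stood low. Cox8a had 153 and 158 CPM in normal and 172 and 133 CPM in high glucose, with the high glucose libraries at both extremes.

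Cox5b, the zinc-binding subunit, had 136 and 81.5 CPM in normal and 109 and 111 CPM in high glucose, with the normal glucose libraries at both extremes. Cox6a1 was nearly level, at 140 and 130 CPM in normal and 131 and 130 CPM in high glucose. Cox7a2 had 18.7 and 10 CPM in normal and 16.5 and 18.2 CPM in high glucose. Cox7a2l, which helps join complexes III and IV into supercomplexes, had 31.2 and 25.3 CPM in normal and 35.4 and 31.8 CPM in high glucose, without overlap (0.25, SE 0.20, and 0.10 without normal glucose replicate 2).

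The tissue isoforms of complex IV replace the ubiquitous copies in certain organs. Cox6b2 (chromosome 7, 4751792 to 4753094, minus strand), known as the testis form of subunit 6b, had 15.5 and 15.8 CPM in normal and 25.6 and 20.7 CPM in high glucose. Here the normal glucose libraries lay together and both high glucose libraries were above them (log2 fold change 0.57, SE 0.21, adjusted p = 0.806 by edgeR). The fold change was 0.58 without normal glucose replicate 2 and 0.55 without replicate 1, so neither control carried it. The ubiquitous copy Cox6b1 had 62.5 and 75.5 CPM in normal and 84.3 and 63.4 CPM in high glucose, with overlapping groups (0.10, SE 0.21). Per kilobase of coding sequence, Cox6b2 made up 19.5% and 17% of the pair in normal and 22.9% and 24.2% in high glucose.

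The other tissue copies had far lower counts. Cox7a1, the heart and skeletal muscle form of subunit 7a, had 0.648 and 0.298 CPM in normal and 1 and 0.606 CPM in high glucose, and made up 3% to 5.95% of the pair with Cox7a2 per kilobase of coding sequence. In the order normal replicates 1 and 2, then high replicates 2 and 4, Cox6a2 had 3, 10, 6 and 3 reads. Cox7b2 had 2, 0, 0 and 20 reads, all but 2 of them in a single library, and Cox8b had 1, 1, 0 and 2. Cox8c had no count in any library, which allows up to 3 counts, or 0.0387 to 0.0688 CPM. These limits cover counting error only, and no fold change is given for the 4.

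Complex V, the ATP synthase, had the smallest median log2 fold change of the complexes, 0.11. Atp5b, the catalytic beta subunit, had the highest mean CPM of all members (not corrected for length), 691 and 505 CPM in normal and 615 and 692 CPM in high glucose (log2 fold change 0.13, SE 0.21, and -0.08 without normal glucose replicate 2). Atp5a1, the alpha subunit, had 358 and 296 CPM in normal and 358 and 369 CPM in high glucose. Normal glucose replicate 2 was the low library in both, and replicate 1 was at the level of high glucose. Atp5c1, the rotating gamma subunit, had 126 and 85.7 CPM in normal and 113 and 111 CPM in high glucose. The delta subunit Atp5d was the exception in the catalytic head and stalk, with 114 and 192 CPM in normal and 123 and 131 CPM in high glucose (-0.27, SE 0.25). Its highest library was normal glucose replicate 2, and without it the fold change was 0.16. Atp5d overlaps Cbarp on the other strand.

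Subunit c, which forms the rotating ring of the proton channel, is encoded by 3 genes that give the same mature protein. Atp5g3 was the most abundant per kilobase of coding sequence, at 843 and 739 CPM per kilobase in normal and 754 and 848 in high glucose. Atp5g1 had 89.3 and 100 CPM in normal and 107 and 88 CPM in high glucose. Atp5g2 had 101 and 191 CPM in normal and 156 and 99.7 CPM in high glucose, so 1 library of each group was high. Its share of the 3 genes per kilobase of coding sequence was 17.9% and 30.7% in normal and 26% and 17.6% in high glucose. Pseudogenes hold 87.7% of the 32-base stretches of Atp5g2, so these counts are uncertain.

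Among the stalk and membrane subunits, Atp5h (subunit d; chromosome 11, 115415689 to 115419962, minus strand) had 79.3 and 34.3 CPM in normal and 76.2 and 91.6 CPM in high glucose. Only normal glucose replicate 2 stood low, and the fold change of 0.56 (SE 0.34, adjusted p = 0.991 by edgeR) was 0.08 without it. Other genes hold 58.8% of the 32-base stretches of Atp5h, so its counts are uncertain too. Atp5l (subunit g) had 8.73 and 5.3 CPM in normal and 11 and 8.34 CPM in high glucose, with overlap. The median log2 deviation of the 7 stalk and membrane genes in normal glucose replicate 2 was -0.44, against -0.21 for the 5 genes of the catalytic head and central stalk and 0.07 for the 3 of the c-ring. Atp5s, of the lowest mean CPM among the genes that match the pattern for complex V, had 2.06 and 0.963 CPM in normal and 1.6 and 1.87 CPM in high glucose.

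**Figure D3:**
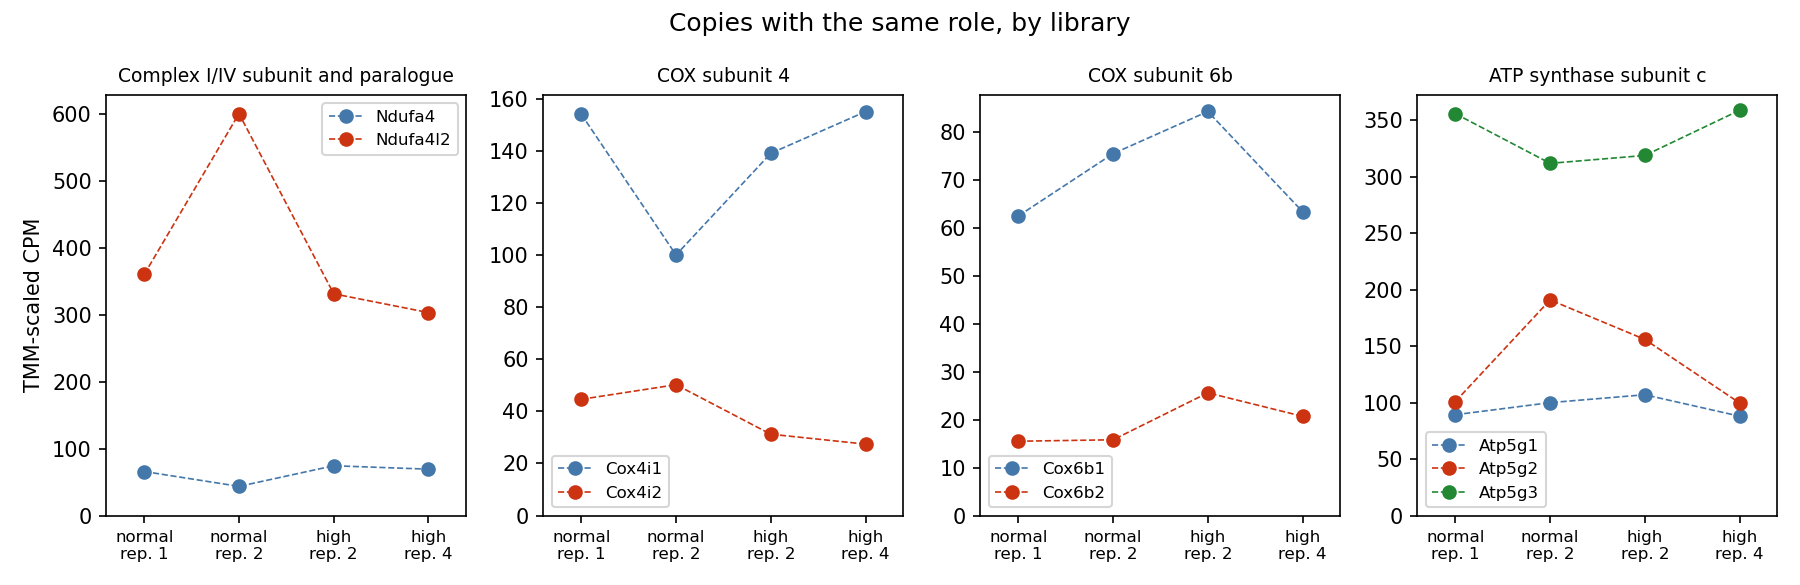
TMM-scaled CPM (vertical axes, each from 0) of copies of the same subunit, or of Ndufa4 and its paralogue, in the 4 libraries (horizontal axis). Dashed lines join the libraries of 1 gene as a guide. Ndufa4l2 reaches 600 CPM in normal glucose replicate 2 while Ndufa4 is at its lowest, 43.5 CPM, Cox4i2 is lower in both high glucose libraries, Cox6b2 is higher in both, and Atp5g2 is high in 1 library of each group.

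The members share a small size that the rule did not use. Their median coding length was 417 bases (156 to 2181), against 1377 bases for all genes tested with a length, and 53 of the 78 lie in the shortest of 10 equal classes of all genes (75 to 528 bases). In that class the median gene had a log2 deviation of -0.10 in normal glucose replicate 2, while those of the longer classes lay between -0.02 and 0.06. The 53 members there stood at -0.40, and normal glucose replicate 2 was lowest in 38 of them, against 45.9% of all genes of the class. Across the 78 members the Pearson correlation of log2 coding length with this deviation was 0.22 and Spearman's rho was 0.26; across all genes they were 0.10 and 0.09. The genes share libraries, so these are descriptions. With an offset that removes the average dependence on coding length in each library, the members' median was 0.16 and 0 passed the threshold, against 0.0133% of all genes.

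The CPM of a gene, not corrected for length, went with the size of the gap as well. The 24 members below 20 CPM had a median deviation of -0.65 in normal glucose replicate 2 and a median log2 fold change of 0.33. The 37 members of 20 to 100 CPM had -0.26 and 0.20, and the 17 of at least 100 CPM had -0.03 and 0.02. All genes of the same levels had median deviations of -0.02, 0.02 and 0.10. Shared sequence made less difference: the 34 members with at least 10% of their 32-base stretches in other genes had -0.37, and the other 44 had -0.28. The part of length, level and shared sequence in the difference between the groups was not tested beyond these values.

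**Figure D4:**
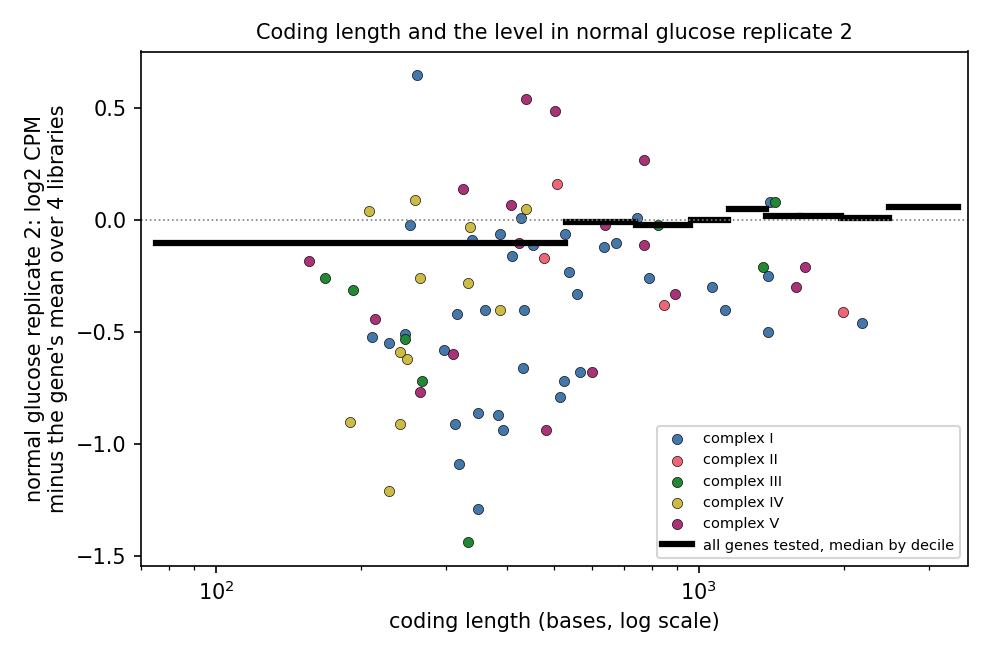
Log2 CPM in normal glucose replicate 2 minus the gene's mean over 4 libraries (vertical axis) against coding length in bases (horizontal axis, log scale) for the 78 tested genes, coloured by complex; black bars are the medians of all tested genes in each of 10 classes of coding length, without the longest class. Most members lie left of 528 bases and below the bar of their class, which is at -0.10.

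Of the 8 tested subunits and carriers outside the symbol patterns, 6 were lowest in normal glucose replicate 2 and 2, Cox4i2 and Cyc1, were highest there. Cox4i2, the isoform of subunit 4 known from lung and from cells in low oxygen, had 44.6 and 50.2 CPM in normal and 31.2 and 27.4 CPM in high glucose. Both high glucose libraries were below both controls (log2 fold change -0.69, SE 0.19, adjusted p = 0.537 by edgeR), and the value was -0.61 without normal glucose replicate 2. It therefore did not pass the adjusted threshold, but it did not depend on that library either. The ubiquitous copy Cox4i1 had 154 and 100 CPM in normal and 139 and 155 CPM in high glucose (0.21, SE 0.23, and -0.07 without that library). Per kilobase of coding sequence Cox4i2 made up 22.1% and 32.9% of the pair in normal and 18% and 14.8% in high glucose.

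The acyl carrier subunit Ndufab1 had 89.2 and 68.1 CPM in normal and 93.6 and 82 CPM in high glucose, and the ATP synthase inhibitor Atpif1 had 37.1 and 18.3 CPM, then 39.6 and 35.5 CPM. Cytochrome c1 (Cyc1), a catalytic part of complex III, varied less, with 85 and 92.4 CPM in normal and 84.9 and 91.5 CPM in high glucose. Cytochrome c (Cycs), the mobile carrier between complexes III and IV, had 12.8 and 9.24 CPM in normal and 12.1 and 15 CPM in high glucose. None of these passed the test.

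Assembly factors, which build the complexes without being part of them, were tested for 49 genes. None passed, 33 were above 0 and 16 below, and the median was 0.10 on the log2 scale, or -0.06 without normal glucose replicate 2. That library was the lowest of the 4 in 34 of the 49. Groups did not overlap in 8 that were higher (16.3%, the share of all genes as well) and in 3 that were lower (6.12%, against 16.2%). The complex II factor Sdhaf3 had 1.37 and 0.78 CPM in normal and 2.13 and 1.62 CPM in high glucose (0.79, SE 0.38, and 0.46 without that library). Ecsit, a complex I factor, was among the lower, with 18 and 24 CPM in normal and 14.9 and 15.7 CPM in high glucose (-0.46, SE 0.22, and -0.24 without it). Higd1a, a small partner of complex IV known to be induced by low oxygen, had 82 and 46.7 CPM in normal and 53 and 49.7 CPM in high glucose, so normal glucose replicate 1 alone stood high.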

How the data were processed

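The authors deposited whole-number read counts per gene symbol, 1 table per library; per the submitters' processing notes, TopHat, edgeR and the mouse build mm10 were used, without versions or roles. Counting tool, annotation, strand use and treatment of multiply matching reads are not stated in any source used here. Rows sharing a symbol (35 symbols, no member) were summed. Counts were fitted with edgeR 4.0.16 (limma 3.58.1, R 4.3.3): TMM scaling, filterByExpr, glmQLFit and glmQLFTest on group alone, two-sided, Benjamini-Hochberg adjustment over 16270 genes, threshold 0.05. The common biological coefficient of variation was 20%. Log2 fold changes are high minus normal glucose; deviations used log2 CPM with a prior count of 2. The script was tested on simulated counts. Alternatives were other scalings, DESeq2 1.42.0, limma-voom, edgeR's exact test, other filters, a looser threshold, an offset by coding length, and leaving out each library.

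Members and lists were chosen with earlier results of these data known. Named genes were, per complex, the 2 tested members of smallest p above 0 and the 2 below 0, those of highest and lowest mean CPM, and the catalytic core, proton-channel copies and tissue isoforms; any other was chosen after its values were seen, and 1 gene under the rule is not reported here. Coordinates and lengths are from GENCODE vM21 (GRCm38, the same assembly as mm10), which matched all 82 members; 28 overlap a gene on the other strand. Shared sequence is the percent of a gene's 32-base stretches found in other genes. Depths differed by library, so low counts are least precise in normal glucose replicate 2. Other lists (assembly, citric acid cycle, biogenesis, ribosomal proteins, cell type markers) are described by counts and medians.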

Additional observations from a re-analysis of the deposited data

How the results depend on the processing

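In the alternatives that kept all 4 libraries, 0 members passed the threshold in either direction, and the members' median log2 fold change stayed between 0.16 and 0.20. Leaving out 1 library gave 0 to 31 members higher, 0 to 3 lower, and medians of 0.02 to 0.41 for all members, 0.02 to 0.46 for complex I, 0.06 to 0.37 for complex II, 0.02 to 0.40 for complex III, 0.05 to 0.49 for complex IV and 0.02 to 0.25 for complex V. The upper values came without normal glucose replicate 1 and the lowest medians without normal glucose replicate 2; the cause was not tested. Single genes near 0 changed sign: with upper-quartile scaling Sdhc was 0.01; with total counts only Cox8a was 0.01 and Sdhc 0.04; with the coding-length offset Atp5g1, Atp5g3 and Cox5b were -0.01 and Cox6b1 -0.02. Leaving out 1 library turned the sign of Atp5b (-0.08 to 0.37), Atp5c1 (-0.17 to 0.39), Atp5d (-0.59 to 0.16), Atp5g1 (-0.09 to 0.17), Atp5g2 (-0.58 to 0.33), Atp5g3 (-0.07 to 0.12), Atp5s (-0.24 to 0.85), Cox5a (-0.41 to 0.01), Cox5b (-0.31 to 0.43), Cox6a1 (-0.10 to 0.01), Cox6b1 (-0.11 to 0.29), Cox7a2 (-0.11 to 0.80), Cox8a (-0.22 to 0.15), Ndufa5 (-0.23 to 1.78), Ndufs1 (-0.17 to 0.56), Sdhc (-0.16 to 0.16), Sdhd (-0.04 to 0.27), Uqcrb (-0.27 to 1.85), Uqcrc1 (-0.23 to 0.08) and Uqcrfs1 (-0.01 to 0.06). Only named genes are listed here, and other members changed sign as well. Ndufb6 went from 0.23 with all 4 libraries to -0.30 without normal glucose replicate 2, and Ndufa8 from 0.18 to -0.31. Low counts limit the 4 untested isoforms of complex IV, with at most 20 reads in a library. No paired analysis was possible because 2 is the single replicate number found in both groups.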

Other observations

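Other gene groups of the mitochondrion and of protein synthesis were read in the same fit. None of the 16 tested genes of pyruvate dehydrogenase and the citric acid cycle passed edgeR's test; 13 were above 0, and the median log2 fold change was 0.12, or 0.05 without normal glucose replicate 2. Malate dehydrogenase (Mdh2) had 238 and 361 CPM in normal and 296 and 267 CPM in high glucose, so its highest library was the one in which most respiratory chain subunits were lowest. The succinyl-CoA ligase subunit Sucla2 had 8.15 and 3.03 CPM in normal and 6.45 and 8.43 CPM in high glucose, lowest in that same library. The E1 beta subunit of pyruvate dehydrogenase, Pdhb, had 34.6 and 22.8 CPM in normal and 40.8 and 36.6 CPM in high glucose, without overlap (log2 fold change 0.43, SE 0.24, and 0.16 without normal glucose replicate 2).

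Regulators of mitochondrial biogenesis and genome expression had no common direction: 9 of 20 tested genes were above 0, 11 below and 0 passed, with a median of -0.04. Nrf1, the factor whose motif is frequent in the promoters of the respiratory genes, had 24.3 and 23.9 CPM in normal and 20.1 and 17.3 CPM in high glucose, without overlap (log2 fold change -0.37, SE 0.20, adjusted p = 0.984 by edgeR), and -0.38 without normal glucose replicate 2. The coactivator Ppargc1a had 3.31 and 3.3 CPM in normal and 4.11 and 3.82 CPM in high glucose (0.26, SE 0.24). Mitochondrial ribosomal proteins were above 0 in 58 of 77 genes (median 0.09), and normal glucose replicate 2 was lowest in 46. Without that library 43 of 77 were above 0, with a median of 0.03. Cytosolic ribosomal proteins were above 0 in 69 of 85 tested genes (median 0.19), normal glucose replicate 2 was lowest in 66, and the median without that library was -0.10. The 0 calls in each of these lists are from edgeR's quasi-likelihood test; at an unadjusted p under 0.05 the mitochondrial ribosomal proteins had 1 gene lower and the other lists 0.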
